A study of Mus musculus with 5 samples.

Results

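The PGC1 coactivators and the transcription factors that work with them to control mitochondrial biogenesis were examined in kidney cortex of *Fnip1* null and wildtype mice. The group was chosen by gene name and holds 8 genes, *Ppargc1a*, *Ppargc1b*, *Esrra*, *Esrrb*, *Esrrg*, *Nrf1*, *Gabpa* and *Tfam*, of the 24421 gene symbols counted. RNAseq libraries of cortical kidney tissue, 1 for each mouse, came from 3 *Fnip1* null animals (8637, 9210 and 9121) and 2 wildtype animals (9055 and 9056). All 5 mice were on the C57BL6J background, and the kidneys were flash frozen. The null mice carried the genotype Fnip1-/-, a constitutive loss from ENU mutagenesis that affects every cell type and not the kidney alone, and the controls were labelled Fnip1+/+. The paper's account of the RNAseq also calls its controls Fnip1+/-, so which genotype the wildtype mice had was taken from the labels and could not be checked here. Mice of both genotypes were described as 11 to 18 weeks old, and no age, sex or litter was given for a single mouse. *Fnip1* encodes a binding partner of Folliculin and of the energy sensor AMPK, and the comparison asks how its loss alters RNA in the kidney.

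PGC1α and PGC1β, the products of *Ppargc1a* and *Ppargc1b*, do not bind DNA themselves. They are recruited by DNA-binding factors, among them the estrogen-related receptors ERRα, ERRβ and ERRγ and the nuclear respiratory factors NRF1 and GABPA, and raise transcription of nuclear genes for the respiratory chain, the TCA cycle and fatty acid oxidation. One target, *Tfam*, encodes the factor that packages and transcribes mitochondrial DNA. Kidney tubules are rich in mitochondria, and AMPK is known to act on PGC1α.

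Gene counts ran from 15799114 to 19132145 per mouse, and 13874 genes had enough counts to be tested, all 8 regulators among them. Levels are given as normalized CPM, counts scaled to one common library total after TMM normalization (which sets the bulk of genes equal between libraries), and 3 counts in a mouse corresponded to 0.158 to 0.186 CPM. A difference is the log2 fold change of *Fnip1* null over wildtype mice from edgeR's quasi-likelihood test, with its SE, and p-values were adjusted by the Benjamini-Hochberg method over all genes tested. A gene was called at an adjusted p of at most 0.05 and a change of at least 2-fold. *Fnip1* itself was at 21, 16.9 and 16 CPM in null mice 8637, 9210 and 9121 and at 51.7 and 48.6 CPM in wildtype mice 9055 and 9056 (log2 fold change -1.48, adjusted p = 0.0313). Some libraries stood apart in ways the labels do not give. Null mouse 9121 had 314 CPM of *Xist* and no *Ddx3y* count, while each of the other 4 mice had *Ddx3y* and at most 24 counts of *Xist*. By these sex-linked genes mouse 9121 was female and the other 4 mice were male. Sex was thus not balanced between the genotypes, the fit had no covariate for it, and its part in the differences was not tested. The summed adipocyte markers were 219 and 78 CPM in null mice 9210 and 9121, against 5.89 CPM in null mouse 8637 and 4.84 to 11 CPM in wildtype mice.

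None of the 8 regulators was called, against 0.533% of all genes tested, and none passed the adjusted p alone, which 0.735% of genes did. *Ppargc1a* and *Esrrb* had positive log2 fold changes and the other 6 genes had negative ones. The median of the 8 was -0.018, beside 0.0031 for all genes. At an unadjusted p under 0.05 stood *Ppargc1a*, *Ppargc1b* and *Gabpa*, 3 of 8, where 25.1% of all genes stood. Of these, *Ppargc1a* was on the higher side, as were 13.9% of all genes, and the other 2 on the lower side, as were 11.2%. The null mice lay wholly above the wildtype mice for *Ppargc1a*, wholly below them for *Ppargc1b*, *Gabpa* and *Tfam*, and overlapped them for *Esrra*, *Esrrb*, *Esrrg* and *Nrf1*. Such separation was common between these 2 groups of mice: 45.9% of all genes had groups that did not overlap.

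**Figure D1:**
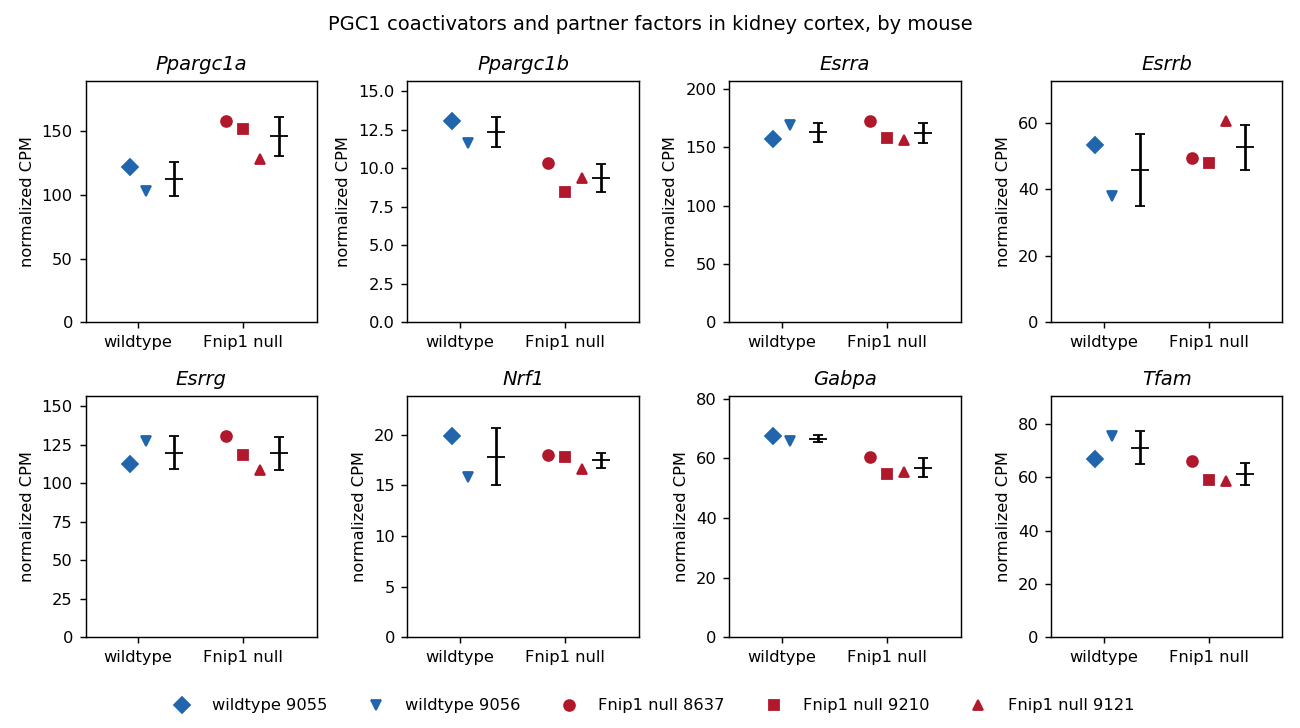
Normalized CPM (vertical axis, from 0) of each of the 8 regulators in the 2 wildtype (blue) and 3 *Fnip1* null (red) mice, one symbol per mouse, with the mean and SD of each group in black. The groups separate for *Ppargc1a*, *Ppargc1b*, *Gabpa* and *Tfam* and overlap for the other 4 genes.

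*Ppargc1a*, the coactivator known for responding to fasting, cold and exercise, lies on chromosome 5 (51454250 to 51567726, minus strand, GRCm38). It was at 158, 152 and 128 CPM in null mice 8637, 9210 and 9121 and at 122 and 103 CPM in wildtype mice 9055 and 9056. All null mice were higher than both wildtype mice, but the lowest null mouse was close to the higher wildtype mouse. The means were 146 ± 15.6 CPM (SD, n = 3) in null and 113 ± 13.4 CPM (SD, n = 2) in wildtype mice. The log2 fold change was 0.37 (SE 0.13, 95% interval 0.057 to 0.69), a 1.29-fold difference, with an unadjusted p of 0.0275 and an adjusted p of 0.156 in edgeR's test. It thus missed the threshold, and the interval reached from 1.04-fold to 1.61-fold. The highest level was in mouse 8637. Of the cell type lists, only its summed adipocyte markers lay within the wildtype range. Its proximal tubule sum was below that range (11666 against 12417 to 13722 CPM), as were its thick ascending limb and leukocyte sums. Its other sums, podocyte and intercalated cell among them, lay above it. The part of cell types in these levels was not tested. With mouse 8637 as the only null mouse the log2 fold change was 0.49. That comparison was chosen after the data were seen, and in it the lone mouse is assumed to vary like the wildtype mice.

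The 100 bases before the RefSeq start of *Ppargc1a* are shown because CREB and its relatives are known to act on this promoter. The stretch is chr5:51567726-51567825 on the minus strand (RefSeq, GRCm38.p6), written 5′ to 3′, with the 5-base core of a cAMP response element in capitals.
Ppargc1a: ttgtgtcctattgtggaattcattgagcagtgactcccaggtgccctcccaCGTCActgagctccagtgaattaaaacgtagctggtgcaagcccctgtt
The core, searched as TGACG or its reverse complement CGTCA within 250 bases before and 50 bases after each start, was present in 20.8% of all 32851 RefSeq promoter windows. Among the regulators it was also found at 2 places in the first of the *Esrrb* promoters. The full element TGACGTCA was in none of the 12 windows of the 7 regulators with an entry and in 1.79% of all windows.

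*Ppargc1b*, the second coactivator of the family, lies on chromosome 18 (61298136 to 61400431, minus strand). It was at 10.3, 8.44 and 9.34 CPM in null mice 8637, 9210 and 9121 and at 13 and 11.7 CPM in wildtype mice 9055 and 9056. Each null mouse was below each wildtype mouse. The means were 9.36 ± 0.935 CPM (SD, n = 3) and 12.3 ± 0.974 CPM (SD, n = 2), from 142 to 210 counts per mouse. The log2 fold change was -0.40 (SE 0.15, 95% interval -0.76 to -0.037, unadjusted p = 0.0356, adjusted p = 0.174 in edgeR's test), a value that also missed the threshold.

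The ratio of the counts of the 2 coactivators needs no scaling between libraries. Null mice 8637, 9210 and 9121 had 15.3, 18 and 13.7 counts of *Ppargc1a* for each count of *Ppargc1b*, while wildtype mice 9055 and 9056 had 9.38 and 8.85. The null mice were all higher, and the gap between the groups was wider than the gap between the wildtype mice. This ratio was chosen after the values of both genes were seen and was given no test. An exact permutation test of 3 against 2 mice cannot give a p below 0.1. Of all pairs among the 8 regulators, these 2 genes followed each other least across the mice, with a root mean square difference of 0.40 in log2 CPM centred on each gene's mean.

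The estrogen-related receptors are orphan nuclear receptors that bind to the same DNA element and for which PGC1 proteins act as ligand-like activators. *Esrra*, on chromosome 19 (6910977 to 6921813, minus strand), is the member most closely tied to PGC1α in tissues of high energy demand. It was at 172, 158 and 156 CPM in null mice 8637, 9210 and 9121 and at 157 and 169 CPM in wildtype mice 9055 and 9056. Both wildtype values lay between those of the null mice, and the 5 mice spanned no more than 1.1-fold. The log2 fold change was -0.0059 (SE 0.096, adjusted p = 0.976 in edgeR's test), and its 95% interval of -0.24 to 0.23 left room for a change of up to 1.17-fold upward. Exons of *Trmt112* overlap *Esrra* on the opposite strand, so reads there cannot be assigned without strand. *Trmt112* had a log2 fold change of -0.31 (adjusted p = 0.169).

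*Esrrg*, the receptor known for its part in oxidative muscle and in kidney, spans chromosome 1 from 187608791 to 188214885 on the plus strand. It was at 131, 119 and 109 CPM in null mice 8637, 9210 and 9121 and at 112 and 127 CPM in wildtype mice 9055 and 9056. Both wildtype mice lay within the range of the null mice. Its log2 fold change was -0.0062 (SE 0.11, 95% interval -0.28 to 0.27, adjusted p = 0.979 in edgeR's test). Across the 5 mice *Esrra* and *Esrrg* followed each other more closely than any other pair of the 8 genes, with a root mean square difference of 0.050 in centred log2 CPM. There were 0.696 to 0.759 counts of *Esrrg* for each count of *Esrra* in null mice and 0.715 to 0.756 in wildtype mice.

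*Esrrb*, best known for its roles in placenta, inner ear and stem cells, lies on chromosome 12 (86361117 to 86521628, plus strand). It was at 49.5, 48.1 and 60.5 CPM in null mice 8637, 9210 and 9121 and at 53.4 and 38.1 CPM in wildtype mice 9055 and 9056. The groups overlapped, with the highest value in null mouse 9121 and the lowest in wildtype mouse 9056. The log2 fold change was 0.20 (SE 0.18, 95% interval -0.22 to 0.63, adjusted p = 0.498 in edgeR's test). It depended on which wildtype mice were used, since the value was -0.023 without wildtype mouse 9056 and 0.46 without wildtype mouse 9055. *Esrrb* had the widest range of the 8 genes, 0.67 on the log2 scale over the 5 mice. The genes with the most similar pattern of centred log2 CPM, among 13273 ranked, were *Rap2a*, *Unc5b* and *Adnp2*, with root mean square differences of 0.043, 0.044 and 0.049. The same measure for *Ppargc1a* gave *Tmem108*, *Pgm2l1* and *Klf13*, at 0.042, 0.045 and 0.047.

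**Figure D2:**
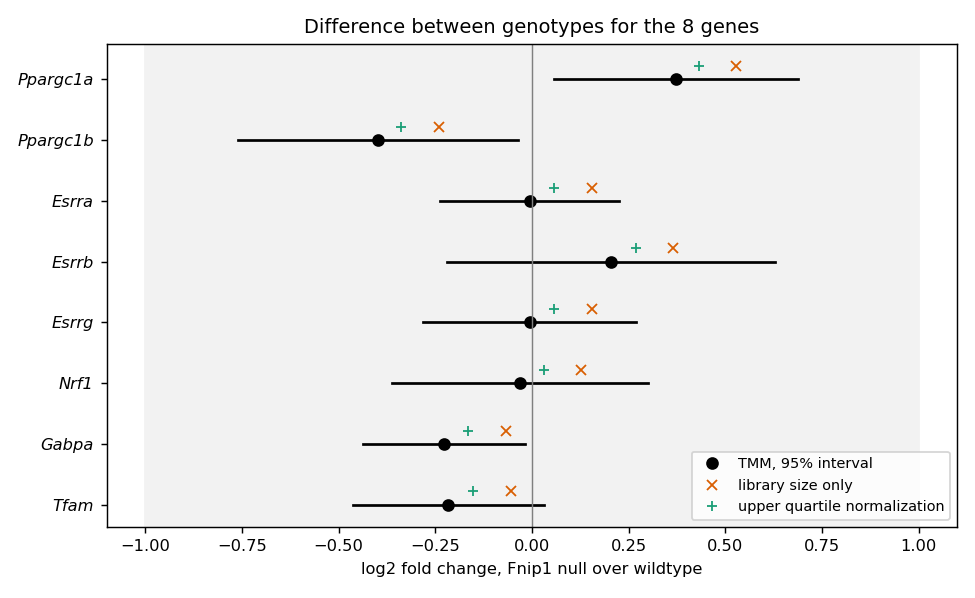
Log2 fold change of *Fnip1* null over wildtype mice (horizontal axis) for each of the 8 regulators with its 95% interval under TMM scaling (black), and its value with scaling by library size only (orange crosses) or by the upper quartile (green plus signs). The shaded band marks less than a 2-fold change, and every interval lies inside it; *Esrra*, *Esrrg* and *Nrf1* are negative under TMM and positive under the other scalings, which move the median of all genes to 0.17 (library size) and 0.067 (upper quartile).

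NRF1 and GABPA bind the promoters of many nuclear genes for respiratory chain subunits and for the mitochondrial transcription machinery. *Nrf1*, on chromosome 6 (30047988 to 30153458, plus strand), was at 18, 17.8 and 16.6 CPM in null mice 8637, 9210 and 9121 and at 19.9 and 15.8 CPM in wildtype mice 9055 and 9056. All 3 null mice fell between the wildtype mice. Its log2 fold change was -0.031 (SE 0.14, 95% interval -0.36 to 0.30, adjusted p = 0.907 in edgeR's test).

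*Gabpa* encodes the DNA-binding subunit of the factor also known as NRF2 in the respiratory chain literature. The gene lies on chromosome 16 (84834925 to 84863779, plus strand). It was at 60.4, 54.8 and 55.6 CPM in null mice 8637, 9210 and 9121 and at 67.5 and 65.8 CPM in wildtype mice 9055 and 9056. Each null mouse was lower than both wildtype mice, whose values were close to each other. The means were 56.9 ± 3.05 CPM (SD, n = 3) and 66.7 ± 1.16 CPM (SD, n = 2), a log2 fold change of -0.23 (SE 0.087, 95% interval -0.44 to -0.018). The unadjusted p was 0.0375 and the adjusted p was 0.177 in edgeR's test, so the gene missed the threshold. Exons of *Atp5j* overlap *Gabpa* on the opposite strand, and *Atp5j* had a log2 fold change of 0.067 (adjusted p = 0.742). The genes for its partner subunits, *Gabpb1* and *Gabpb2*, had log2 fold changes of -0.12 and 0.080 (adjusted p = 0.703 and 0.745).

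*Tfam*, on chromosome 10 (71225464 to 71238280, minus strand), was at 66.2, 59.2 and 58.6 CPM in null mice 8637, 9210 and 9121 and at 66.9 and 75.5 CPM in wildtype mice 9055 and 9056. The groups did not overlap, but null mouse 8637 and wildtype mouse 9055 were nearly level. The means were 61.3 ± 4.24 CPM (SD, n = 3) and 71.2 ± 6.11 CPM (SD, n = 2). The log2 fold change was -0.22 (SE 0.10, 95% interval -0.46 to 0.031, unadjusted p = 0.0763, adjusted p = 0.246 in edgeR's test), and it was -0.13 without wildtype mouse 9056. *Gabpa* and *Tfam* had the second closest patterns of all pairs among the 8 genes, with a root mean square difference of 0.069 in centred log2 CPM. For each count of *Tfam*, null mice 8637, 9210 and 9121 had 2.39, 2.56 and 2.19 counts of *Ppargc1a*, while wildtype mice 9055 and 9056 had 1.83 and 1.37. This ratio too was higher in every null mouse, was chosen after the values were seen, and was not tested.

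A stretch of 30 bases of the *Tfam* promoter window is shown because this was the only one of the 12 windows that held the GABPA motif. It is chr10:71238073-71238102 on the minus strand (RefSeq, GRCm38.p6), written 5′ to 3′, with the motif in capitals, and runs from 58 to 29 bases before the RefSeq start. GENCODE starts *Tfam* 236 bases further upstream, so by that annotation the same bases lie inside the transcribed region.
Tfam: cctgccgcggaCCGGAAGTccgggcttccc
The motif was searched as CCGGAAGT or its reverse complement ACTTCCGG and was present in 3.89% of all promoter windows. It was in 5 of 22 windows (22.7%) of the genes for mitochondrial DNA transcription and maintenance. The NRF1 motif (GCGCA followed directly by TGCGC, a palindrome), the ERR motif TCAAGGTCA (reverse TGACCTTGA) and the element TCACGTGA bound by MiT/TFE factors were in none of the 12 windows, and in 0.971%, 0.423% and 0.974% of all windows. A match or its lack describes these letters in this window and says nothing about binding.

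To set the genes beside each other, CPM was divided by the summed length of the exons of RefSeq-matched transcripts. *Esrra* was highest, at 69.8 to 76.8 CPM per kb over the 5 mice. *Esrrg* at 19.2 to 23 and *Ppargc1a* at 16 to 24.4 CPM per kb came next and overlapped. *Tfam* at 14.1 to 18.1 CPM per kb overlapped the lower end of *Ppargc1a*. Below these came *Gabpa*, at 11 to 13.5 CPM per kb, and *Esrrb*, at 8.25 to 13.1, which also overlapped. *Nrf1*, at 2.96 to 3.72 CPM per kb, and *Ppargc1b*, at 2.31 to 3.57, were lowest, and this pair changed places when the exons of all coding transcripts were used. Of the summed level of the 3 receptors per kb, *Esrra* made up 68.4% to 71%, *Esrrg* 18.8% to 21.2% and *Esrrb* 7.79% to 12.8%. *Esrra* thus led the receptor transcripts in every mouse of both genotypes, and *Ppargc1a* led the coactivators.

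**Figure D3:**
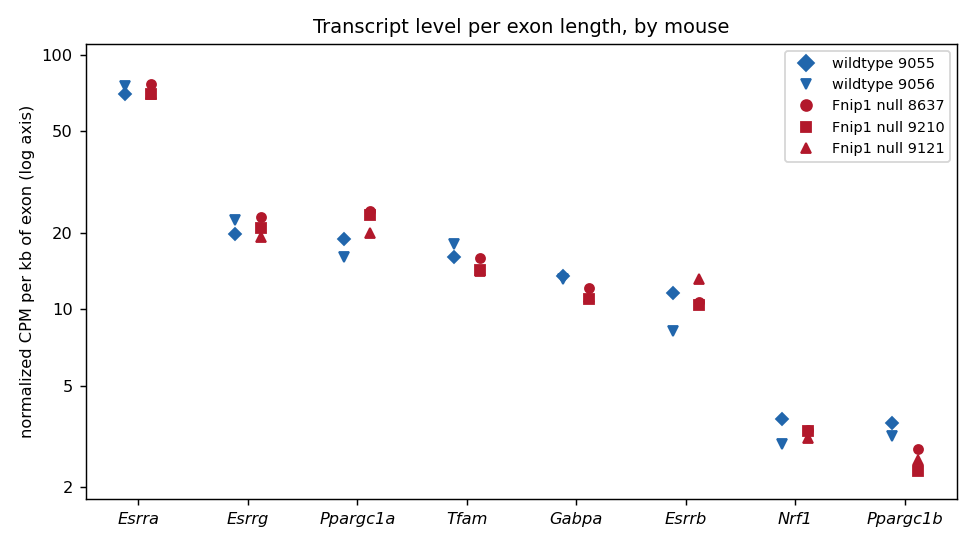
Normalized CPM per kb of exon (vertical log axis) for the 8 regulators in order of their mean, one symbol per mouse, wildtype in blue and *Fnip1* null in red. *Esrra* stands above the others at 69.8 to 76.8 CPM per kb, and *Nrf1* and *Ppargc1b* lie below 4 in every mouse.

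Other genes of the pathway were followed as lists of symbols, and no gene of the 5 lists was called or passed the adjusted p alone in the quasi-likelihood test. Of all genes, 0.533% were called and 0.735% passed the adjusted p. The share of all genes at an unadjusted p under 0.05 was 25.1%, and no list exceeded it. Of 16 enzymes that modify PGC1 proteins, 7 had positive and 9 negative log2 fold changes, with 1 at an unadjusted p under 0.05. The highest were *Prkag2*, an AMPK regulatory subunit, at 0.41 (adjusted p = 0.189) and the deacetylase *Sirt1* at 0.27 (adjusted p = 0.22). The lowest were *Prkaa2*, an AMPK catalytic subunit, at -0.33 (adjusted p = 0.406) and the p38 kinase *Mapk14* at -0.26 (adjusted p = 0.45). The other AMPK subunits in the list, *Prkaa1*, *Prkab1*, *Prkab2* and *Prkag1*, had values of -0.027, 0.038, 0.097 and -0.053.

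Of 15 transcription factors upstream of *Ppargc1a*, 11 had positive values, with a median of 0.031 and 1 at an unadjusted p under 0.05. That gene was *Mitf*, of the MiT/TFE family whose nuclear entry Folliculin is known to restrain, with a log2 fold change of 0.42 (SE 0.10, adjusted p = 0.0975 in edgeR's test). *Mitf* was at 24, 26.4 and 25.1 CPM in null mice 8637, 9210 and 9121 and at 18.4 and 19.1 CPM in wildtype mice 9055 and 9056, without overlap. Its relatives *Tfeb* and *Tfe3* had values of 0.13 and 0.082 (adjusted p = 0.559 and 0.627). The myocyte factor *Mef2c* had the highest value, 0.64 (adjusted p = 0.221), and *Mef2d* and *Yy1* the lowest, -0.081 and -0.066 (adjusted p = 0.732 and 0.741).

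The partners and corepressors of PGC1 proteins were 26 genes, of which 7 had positive and 19 negative log2 fold changes, with a median of -0.11 and 3 at an unadjusted p under 0.05. The highest were *Pparg*, the receptor of adipocyte differentiation, at 0.84 (adjusted p = 0.267) and the corepressor *Nr0b2* at 0.71 (adjusted p = 0.167). *Pparg* was at 3.56 and 3.64 CPM in null mice 9210 and 9121 and at 1.65 CPM in null mouse 8637. Wildtype mice 9055 and 9056 had 1.92 and 1.37 CPM. Mice 9210 and 9121 also had the higher adipocyte sums, and a link was not tested. The lowest were the thyroid hormone receptor *Thrb* at -0.49 (adjusted p = 0.103) and the corepressor *Ncor1* at -0.40 (adjusted p = 0.226). *Pprc1*, the third coactivator of the PGC1 family, had a log2 fold change of -0.13 (adjusted p = 0.709).

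Of the genes for mitochondrial DNA transcription and maintenance, besides *Tfam*, 23 were tested, 5 with positive and 18 with negative log2 fold changes, a median of -0.10 and 2 at an unadjusted p under 0.05. The null mice lay wholly below the wildtype mice for 7 of the 23 and wholly above for 2, where 23% and 22.9% of all genes did. The lowest were the elongation factor *Tefm* at -0.33 (adjusted p = 0.189) and the ribonucleotide reductase subunit *Rrm2b* at -0.31 (adjusted p = 0.258). At the other end were *Mterf2* at 0.17 (adjusted p = 0.544) and *Rnaseh1*, which removes RNA from RNA-DNA hybrids, at 0.16 (adjusted p = 0.561). The 13 protein-coding genes of the mitochondrial DNA itself were not among the gene symbols used here, so they could not be analysed.

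Of 41 known targets of PGC1 and ERR factors, 40 were tested, 22 with positive and 18 with negative log2 fold changes (median 0.022). An unadjusted p under 0.05 was reached by 6 of the 40 and by 25.1% of all genes. The highest was *Slc25a4*, the ADP/ATP carrier of the inner membrane, at 482, 570 and 535 CPM in null mice 8637, 9210 and 9121 and at 322 and 345 CPM in wildtype mice 9055 and 9056. Its groups were well apart, and the log2 fold change was 0.67 (SE 0.13, adjusted p = 0.0679 in edgeR's quasi-likelihood test). *Cpt1b*, which admits fatty acids to mitochondria in muscle and fat, had nearly the same log2 fold change, 0.67, at 4 to 8.13 CPM over the 5 mice (adjusted p = 0.196).

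The lowest targets were enzymes of fatty acid oxidation. *Acadm*, which oxidizes medium-chain acyl-CoA, was at 910, 728 and 1032 CPM in null mice 8637, 9210 and 9121 and at 1222 and 1383 CPM in wildtype mice 9055 and 9056 (log2 fold change -0.55, SE 0.18, adjusted p = 0.14 in edgeR's test). *Cpt2*, the inner-membrane carnitine transferase, was at 210, 182 and 195 CPM in these null mice and at 248 and 266 CPM in these wildtype mice (log2 fold change -0.39, SE 0.11, adjusted p = 0.106). Neither gene's groups overlapped, and neither passed the threshold. In a split by role made after the values were seen, the median was -0.22 for 8 genes of fatty acid oxidation, 0.057 for 8 genes of the TCA cycle and 0.042 for 13 genes of the respiratory chain and ATP synthase. The fatty acid oxidation genes ran from -0.55 for *Acadm* to 0.67 for *Cpt1b*. Null mice lay wholly below the wildtype mice for 4 of the 8 and wholly above for 2, *Cpt1b* and *Hadha* (0.24). Of all genes, 23% had null mice wholly below and 22.9% wholly above. Within the TCA cycle genes values ran from -0.15 for *Idh3g* to 0.18 for *Idh3a*, and within the respiratory chain from -0.23 for *Cycs* to 0.24 for *Cox5b*.

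**Figure D4:**
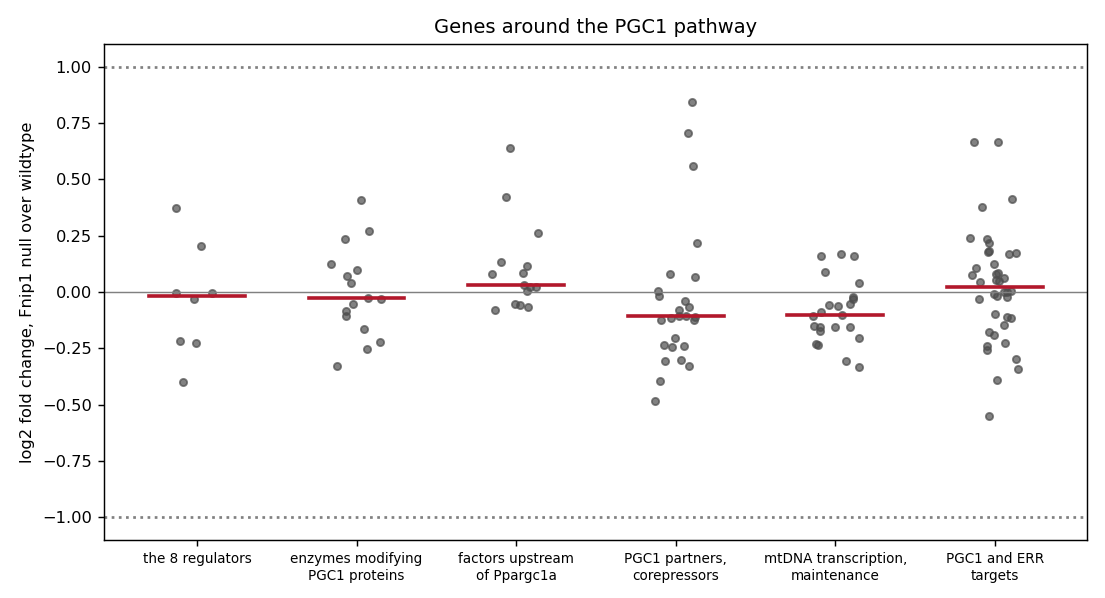
Log2 fold change of *Fnip1* null over wildtype mice (vertical axis) for the 8 regulators and for each tested gene of the 5 pathway lists, one point per gene, with the list median as a red line. Dotted lines mark a 2-fold change, which no gene reached; medians ran from -0.11 to 0.031.

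Levels of cell type marker genes differed between the mice, and the values above were read beside them. The proximal tubule is the nephron segment that relies most on fatty acid oxidation. Its 8 markers summed to 8849 to 11666 CPM in null mice and 12417 to 13722 CPM in wildtype mice, without overlap, and none passed the adjusted p. Most of the sum was *Slc34a1* and *Lrp2*, and the markers did not move as one. Null mice lay wholly below the wildtype mice for 4 of the 8 and wholly above for 2, where 23% and 22.9% of all genes did. Those above were *Slc5a12* (log2 fold change 0.63, adjusted p = 0.14) and *Slc5a2* (0.26, adjusted p = 0.284). Distal convoluted tubule markers summed to 2388 to 2572 CPM in null and 1716 to 1896 CPM in wildtype mice. Principal cell markers summed to 778 to 1140 CPM against 597 to 626 CPM, and intercalated cell markers to 551 to 876 CPM against 375 to 392 CPM. In these distal lists *Pvalb* (log2 fold change -0.019) and *Fxyd4* (-0.22) were negative and the other markers positive. The sums for thick ascending limb overlapped, at 9119 to 13410 and 9221 to 10214 CPM, with *Cldn10* at -0.47 and its other markers positive. Podocyte markers summed to 658 to 773 CPM in null and 367 to 370 CPM in wildtype mice. Of these 5 markers 3 passed the adjusted p, which 0.735% of all genes did. Endothelial markers summed to 261 to 334 CPM against 137 to 236 CPM, fibroblast and smooth muscle markers to 224 to 428 CPM against 132 to 206 CPM, both without overlap. Leukocyte sums overlapped, at 78.5 to 170 and 88.7 to 106 CPM, but the largest marker, *Csf1r*, had a log2 fold change of -0.61 (adjusted p = 0.192) while the other 6 of 7 tested were positive. The median of the 7 was 1.42, and none passed the adjusted p. The null mice lay wholly above for 4 (*Ptprc*, *Cd68*, *Adgre1* and *Itgam*) and wholly below for 1 (*Csf1r*), where 22.9% and 23% of all genes did. Markers of the brown adipocyte, a cell type in which *Ppargc1a* is abundant, summed to 17.7 to 29.8 CPM in null and 12 to 15 CPM in wildtype mice, the larger share of it *Cox7a1* in every mouse. *Ucp1*, *Cidea* and *Cox8b* were at 1.07, 2.73 and 2.14 CPM in null mouse 9210 and at 0.317, 0.317 and 2.43 CPM in null mouse 9121. In null mouse 8637 they were at 0, 0.118 and 0.236 CPM, and in wildtype mice none exceeded 0.124 CPM. Skeletal muscle markers summed to at most 2.43 CPM in any mouse. In bulk tissue, fewer cells of a type and less RNA per cell cannot be told apart, and the part of these differences in the values of the 8 regulators was not tested.

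**Figure D5:**
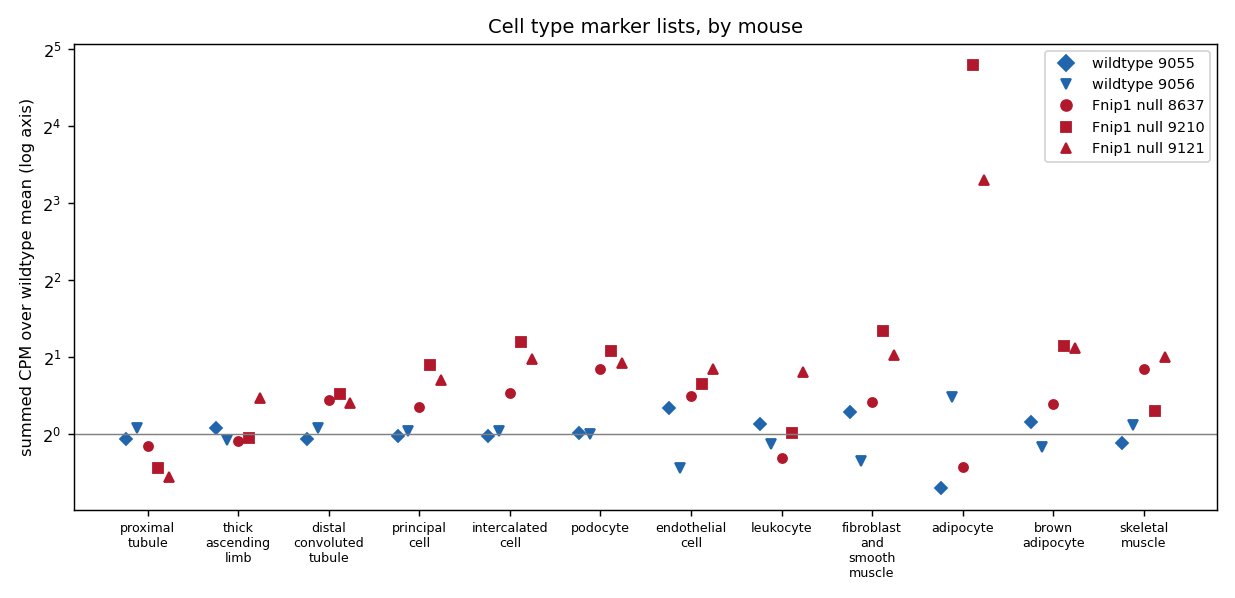
Summed normalized CPM of each cell type marker list divided by its mean in the 2 wildtype mice (vertical log axis), one symbol per mouse, wildtype in blue and *Fnip1* null in red. Podocyte and intercalated cell sums were higher in all null mice, proximal tubule sums were lower, and the adipocyte sum was high in null mice 9210 and 9121 only.

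None of the 8 regulators was called with any null mouse left out or with edgeR's exact or likelihood ratio tests, DESeq2 or limma voom. Each stayed below the 2-fold that a call needs. None passed the adjusted p alone in these fits either. Without null mouse 9210 no gene at all was called or passed the adjusted p, so that fit could not call a regulator. With a wildtype mouse left out 1 stands alone, so those fits are not counted here. At an unadjusted p under 0.05 stood 3 of the 8 by the quasi-likelihood test and limma voom, 2 by the exact and likelihood ratio tests and 1 by DESeq2. Of the 13874 genes tested, 3481 stood there by the quasi-likelihood test and 3429 by limma voom. The exact test had 3262, the likelihood ratio test 3350 and DESeq2 3267. Scaling by library size alone moved the median of all genes to 0.17 (log2), so each value there is read against that shift: *Ppargc1a* was at 0.53, *Ppargc1b* at -0.24, *Gabpa* at -0.068, *Tfam* at -0.055, and *Esrra*, *Esrrg* and *Nrf1* at 0.16, 0.15 and 0.13, positive but below the shift. Among the pathway genes, *Slc25a4* and *Thrb* passed the adjusted p by DESeq2 and by both other edgeR tests, and *Acadm* and *Cpt2* by DESeq2 alone. That is 2 of 120 pathway genes by the exact test, where 9.82% of all genes passed, 2 by the likelihood ratio test, where 10.6% did, and 4 by DESeq2, where 10.3% did. Without null mouse 8637, 1 pathway gene, *Pparg*, was called, and 18 of the 120 passed the adjusted p, where 19.9% of all genes did. Pooled over the lists, none of these shares of the pathway genes exceeded that of all genes. By list, without null mouse 8637, 8 of 26 PGC1 partners and corepressors passed the adjusted p, a share above 19.9%, 7 of them lower. The other lists there had 3 of 16, 1 of 15, 1 of 23 and 5 of 40, each below it. The 2 null mice left there had the higher adipocyte sums, and mouse 9121 also had 314 CPM of *Xist* and no *Ddx3y* count. What part either had in these counts was not tested.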

How the data were processed

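RNA from frozen cortical kidney tissue was made into TruSeq libraries and sequenced by the authors as paired reads of 50 bases. Reads were filtered, aligned to UCSC mm10 with TopHat and counted per gene with HTSeq. The submitters' processing notes name bcl2fastq 1.8.2, TopHat2 2.1.0 and HTSeq 0.6.1. The deposited values are these raw counts, without normalization, 1 table per mouse. The table of the sample titled mouse 9210 carries another mouse number in its name, and the sample record was followed. The strand setting of the counting is not given in the sources used here. HTSeq's lines for unassigned reads, 39% to 42.8% of all reads, were left out of library sizes.

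The counts were read into edgeR 4.0.16 (with limma 3.58.1, under R 4.3.3). Genes below 10 counts in over 2 of the 5 mice were dropped before testing. Libraries were scaled by TMM (factors 0.9144 to 1.091), and genotypes were compared with the quasi-likelihood test (glmQLFit and glmQLFTest) with no covariate. Adjusted p-values are Benjamini-Hochberg values over all genes tested, except those of DESeq2. For DESeq2 its own adjusted values were used, with its default filtering, which can leave genes without a value. CPM errors are SD over mice. The p-values set the difference between genotypes against the spread between these mice only, with the estimate of spread moderated across genes. Replicates were compared by chi-square on their counts, and none were duplicates. The script was tested on simulated data.

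Named genes are the 8 regulators, the 2 highest and 2 lowest log2 fold changes of each list among genes with a mean of at least 1 CPM, and the 3 genes most like *Ppargc1a* and the member of widest range. The other genes named (*Gabpb1*, *Gabpb2*, *Pprc1*, *Tfeb*, *Tfe3*, the other AMPK subunits, single marker genes, the overlapping genes, the ends of the role groups, and genes that passed under another setting) were chosen after their values were seen. The members and lists were chosen with earlier results of these data known. Positions and exons are from GENCODE M21 (GRCm38), matched by symbol, and promoters from RefSeq (GRCm38.p6), with entries for 7 of the 8 regulators. The alternatives comprised 17 planned settings (tests, including DESeq2 1.42.0, scalings, filters, the fold threshold and leaving out each mouse) and mouse 8637 alone against both wildtype mice, added after the data were seen.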

Additional observations from a re-analysis of the deposited data

How the results depend on the processing

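The count of called regulators stayed at 0 under every alternative run. It could not move, because a call needs 2-fold and no regulator reached that. The log2 fold change farthest from 0 was 0.528, for *Ppargc1a* with library size only. The number of all genes called was 74, and it was 570 with the exact test, 628 with the likelihood ratio test, 487 with DESeq2, 40 with limma voom, 145 with no filter on low counts and 182 with mouse 8637 as the only null mouse. It ran from 0 to 948 with one mouse left out: 0 without wildtype mouse 9055, wildtype mouse 9056 or null mouse 9210, 136 without null mouse 9121 and 948 without null mouse 8637. The count of called pathway genes was 0 and ran from 0 to 1 with one mouse left out (*Pparg* without null mouse 8637), and it was 1 with mouse 8637 alone (*Alas1*). For *Esrra* the reversed values were 0.155 with library size only, 0.0568 with the upper quartile, 0.00171 when genes needed 1 CPM in 3 or more mice, and 0.0852 with mouse 8637 alone, and the range with one mouse left out was -0.0608 to 0.0435. For *Esrrg* they were 0.154, 0.0559, 0.00136 and 0.129 in the same order, and the range was -0.0992 to 0.0857. For *Nrf1* they were 0.127 with library size only, 0.0312 with the upper quartile and 0.0144 with mouse 8637 alone, and the range was -0.189 to 0.137. *Esrrb* ran from -0.023 to 0.462. *Ppargc1a* ran from 0.252 without wildtype mouse 9056 to 0.496 without wildtype mouse 9055, and its adjusted p ran from 0.112 to 0.646 with one mouse left out and from 0.0876 to 0.189 under the planned tests, scalings and filters. *Ppargc1b*, *Gabpa* and *Tfam* kept their direction throughout, with ranges of -0.481 to -0.321, -0.271 to -0.201 and -0.305 to -0.129 with one mouse left out. Scaling by library size and by the upper quartile moved the median of all genes to 0.166 and 0.067, and the values of *Esrra*, *Esrrg* and *Nrf1* there lie below that shift. The cause of these movements was not tested. No paired analysis was possible because the labels name mice by their own numbers and no number is shared between genotypes. With 3 against 2 mice, differences smaller than the intervals given cannot be told from none.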
